A study of Homo sapiens with 6 samples.

Results

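The series profiled cells that its labels call NCI-H929, an established line from a human plasma cell tumour, on 6 Affymetrix arrays. The 6 arrays carry replicate numbers, and the 2 arrays with number 3 were compared here with the 4 arrays numbered 1 and 2, taking the treatment into account. Of the 3 arrays in each treatment, 1 has each number, so number 3 holds 1 PRMT5_down array and 1 control array. PRMT5_down cells carried a lentivirus made to lower PRMT5, which dimethylates arginines symmetrically, and control cells a control lentivirus. The labels call these constructs sponges, while the treatment protocol describes a short hairpin RNA in pLKO.1. Puromycin selected the transduced cells, per the protocols, and both kinds were collected at the same time. The labels do not say what arrays of 1 number share, so culture, passage, extraction and hybridisation cannot be told apart here. Nothing in them says that replicates came from separate cultures, so the spread behind each p-value is that between these arrays and may be technical.

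Signals are log2 values, 1 probe set for each of 18132 genes, and array medians lay between 5.29 and 5.32. A gene was counted as above background on an array when its signal passed the 95th percentile of 330 olfactory receptor genes, which lay between 4.90 and 5.02. That placed 10200 genes above background on all 6 and 6844 on none. Of the plasma cell markers, IRF4, CD38, TNFRSF17 and MZB1 were below background on all 6 arrays. SDC1, at 4.99 to 5.47, and PRDM1, at 5.65 to 5.86, were above it on all 6, SDC1 only narrowly. The erythroid markers ALAS2, KLF1 and GATA1 were above background on all 6 arrays, at signals from 9.67 to 10.57. So were the epithelial markers EPCAM, KRT8 and KRT18, at 8.41 to 11.93. The label of a plasma cell line is therefore met only in part, with the same pattern on the number 3 arrays as on the others. Below, a difference is the log2 signal of number 3 minus the mean of numbers 1 and 2. Its standard error (SE) is that of the planned fit, with treatment as covariate, also where the call came from another fit. The word "called" means a limma adjusted p under 0.05 over all genes.

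Several of the programmes described below work as loops. Cytokine receptors signal through JAK kinases to STAT5, which switches on SOCS1, SOCS3 and CISH, inhibitors of the same receptors. NF-kB switches on NFKBIA, its own inhibitor, and the ERK kinase cascade switches on DUSP5 and SPRY4, which damp it. Genes needed for mitosis are transcribed late in the cell cycle from promoters that often carry a CCAAT box, bound by NF-Y, and a CHR element, bound by MuvB complexes.

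The promoters of 4 genes show these elements in genes that limma called. Each run holds the 250 bases before the RefSeq gene start in GRCh38.p14, read in the direction of the gene. Capitals mark matches on either strand, in NFKBIA to the NF-kB consensus and in the mitosis genes DLGAP5, ANLN and NUSAP1 to TTTGAA, the CHR, and CCAAT. NFKBIA (chr14:35404750-35404999, minus strand) encodes the NF-kB inhibitor and was higher in number 3, and DLGAP5 (chr14:55191586-55191835, minus strand), ANLN (chr7:36389612-36389861, plus strand) and NUSAP1 (chr15:41332631-41332880, plus strand) were lower.
NFKBIA: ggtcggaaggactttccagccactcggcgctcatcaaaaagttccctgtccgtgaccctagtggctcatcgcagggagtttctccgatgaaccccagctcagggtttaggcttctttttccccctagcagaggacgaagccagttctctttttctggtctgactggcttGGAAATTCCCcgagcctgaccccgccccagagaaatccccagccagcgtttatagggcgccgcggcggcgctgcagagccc
DLGAP5: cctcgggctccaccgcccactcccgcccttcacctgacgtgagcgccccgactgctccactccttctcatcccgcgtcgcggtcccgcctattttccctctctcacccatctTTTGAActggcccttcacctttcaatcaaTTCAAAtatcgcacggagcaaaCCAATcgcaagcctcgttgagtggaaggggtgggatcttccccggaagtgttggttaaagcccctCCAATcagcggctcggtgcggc
ANLN: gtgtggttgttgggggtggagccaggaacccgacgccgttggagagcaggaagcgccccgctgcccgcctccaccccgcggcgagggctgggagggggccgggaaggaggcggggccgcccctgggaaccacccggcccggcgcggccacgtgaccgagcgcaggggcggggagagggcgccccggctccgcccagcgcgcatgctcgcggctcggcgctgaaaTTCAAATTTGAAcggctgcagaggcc
NUSAP1: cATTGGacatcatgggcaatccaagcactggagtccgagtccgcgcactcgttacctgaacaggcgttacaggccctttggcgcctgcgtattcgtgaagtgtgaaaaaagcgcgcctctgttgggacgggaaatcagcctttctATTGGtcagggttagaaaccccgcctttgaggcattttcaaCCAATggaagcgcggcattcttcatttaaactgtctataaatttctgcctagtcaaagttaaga
DLGAP5 held 2 matches to the CHR and 2 to CCAAT. ANLN held 2 adjacent matches to the CHR and 0 to CCAAT, and NUSAP1 held 0 and 3. These 3 were printed because they hold the most matches among the 5 mitosis genes called as planned. Of the others among the 5, CENPE held 0 and 0 and CCNA2 0 and 1. Only the exact letters TTTGAA and CCAAT were searched, so elements spelled otherwise were not counted, and 0 does not mean that an element is absent. Within 250 bases, TTTGAA was present in 18 of the 28 mitosis gene promoters found in the RefSeq table (64.3%) and in 13.3% of all 35116 promoters, and CCAAT in 24 of 28 (85.7%) and 32.0%. The NF-kB consensus was present in 11 of 21 promoters of NF-kB targets (52.4%) and in 9.96% of all. The STAT palindrome TTCNNNGAA was present in 1 of 12 promoters of STAT5 and cytokine feedback genes (8.33%) and in 6.57% of all. These matches describe the letters of the windows and were not tested against the signals.

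The number on an array separated the 6 arrays more than the treatment did. Number 3 against numbers 1 and 2 took 46.1% of the variance over genes, number 1 against number 2 took 35.2%, and treatment took 8.36%. On the first principal component (53.7% of variance) the number 3 arrays lay highest, at 20.70 for PRMT5_down and 35.62 for control. Number 2 lay at 0.22 and -1.79 and number 1 at -34.15 and -20.60 on the same axis. The second component (30.6%) set number 2 apart, at -24.08 and -25.81, from all 4 others, at 10.42 to 14.36.

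**Figure D1:**
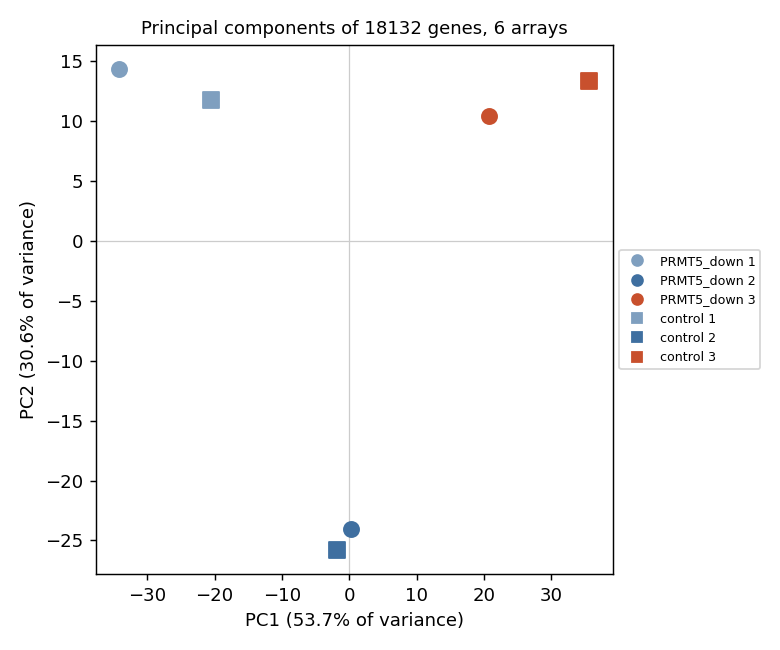
Scores of the 6 arrays on the first 2 principal components of 18132 genes, with colour for the replicate number and shape for the treatment (circles PRMT5_down, squares control). Arrays of 1 number lie together, number 3 to the right at 20.70 and 35.62 on the first component and number 2 at the bottom.

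Number 3 differed from the other 4 arrays in 346 genes in the planned fit and in 4928 once numbers 1 and 2 had separate levels. In the planned fit, with treatment as covariate, limma called 346 genes (1.91%), of which 178 were higher (0.982%) and 168 lower (0.927%) in number 3. Their adjusted p lay between 0.0382 and 0.0498, near the threshold, and 4107 genes (22.7%) had an unadjusted p under 0.05. On 345 of the 346 both number 3 arrays lay beyond all 4 others, and 49 were at least 2-fold higher and 37 at least 2-fold lower, where 0.855% and 0.458% of all genes passed that fold. Over all genes, both number 3 arrays lay above the others for 3771 genes (20.8%) and below for 2628 (14.5%).

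That fit counts the distance between numbers 1 and 2 as noise. When each number had its own level (the replicate block), the differences stayed as they were, their standard errors changed, and limma called 4928 genes (27.2%), 2402 higher (13.2%) and 2526 lower (13.9%), among them all 346. Of these 4928, 2103 differed from number 1 and from number 2 in 1 direction, 1025 higher (5.65%) and 1078 lower (5.95%), and for 3069 the mean of number 2 lay between those of numbers 1 and 3. Number 3 against number 1 alone gave 5318 calls (29.3%), number 3 against number 2 gave 3465 (19.1%), and number 1 against number 2 gave 3285 (18.1%). With any 1 of the 6 arrays left out, the planned fit called 0 genes, and so did the replicate block except without control replicate 1, where limma called 819.

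The number 3 difference was measured separately in each treatment, on arrays that are not shared. Over the 18132 genes the 2 sets of differences had Pearson's r = 0.79, a description across genes, and 13285 genes (73.3%) had the same sign. Of the 200 genes most raised in PRMT5_down, 200 were also higher in control, with a median difference of 1.10 where they were chosen and 1.02 in control. Of the 200 most lowered in PRMT5_down, 199 were lower in control, at -0.95 and -0.91. Starting from control, 200 of the 200 most raised and 198 of the 200 most lowered had the same sign in PRMT5_down. Limma called 0 genes (0%) for a number 3 difference that depends on treatment, and 281 (1.55%) had an unadjusted p under 0.05.

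**Figure D2:**
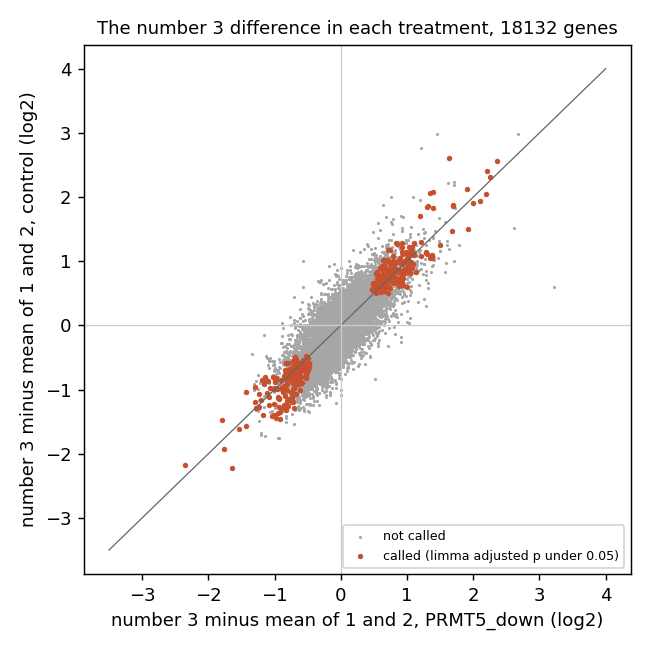
Each point is 1 of 18132 genes, with the number 3 difference (log2) in PRMT5_down on the x axis and in control on the y axis, red for the 346 genes called by limma. The red points lie along the line of equal differences, 178 in the upper right and 168 in the lower left.

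PRMT5 itself did not separate number 3. Its signal was 9.37 and 10.30 on the number 3 arrays of PRMT5_down and control, 8.63 and 9.65 on PRMT5_down arrays 1 and 2, and 9.93 and 10.35 on control arrays 1 and 2. The groups overlap, the difference was 0.20 (SE 0.30, limma adjusted p = 0.743), and it was not called with the replicate block either. Of its partners, WDR77 at 0.48 (SE 0.14) and COPRS at 0.48 (SE 0.09) were higher and RIOK1 at -0.39 (SE 0.12) lower, called only with the replicate block. RIOK1 was at -0.18 without control replicate 3.

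Feedback inhibitors of cytokine signalling stood higher in number 3, 1 of them called as planned and most only with the replicate block. SOCS1, which blocks JAK kinases, stood at 8.34 and 8.61 on the number 3 arrays (PRMT5_down, then control) and at 6.38, 5.79, 6.62 and 5.96 on the others (PRMT5_down 1 and 2, then control 1 and 2). The groups lie far apart, and the difference was 2.29 (SE 0.25, limma adjusted p = 0.0463). SOCS3, of the same family, stood at 7.80 and 7.40 against 5.41, 6.61, 5.74 and 6.56, a difference of 1.52 (SE 0.41). Number 3 was again highest, but number 2 lay well above number 1, and the gene was called only with the replicate block (limma adjusted p = 0.110 as planned and 0.000788 with the block). Of 16 measured STAT5 and cytokine feedback genes, limma called 1 higher and 0 lower as planned, where 0.982% of all genes were called higher and 0.927% lower. Under the block, where those shares were 13.2% and 13.9%, it called 10 higher (SOCS1, SOCS2, SOCS3, CISH, the kinases PIM1 and PIM2, the survival gene BCL2L1, STAT5A, ID1 and TNFRSF13C) and 1 lower, the kinase gene JAK2. The list had a median difference of 0.61, beside 0.05 over all genes tested. PIM2 was at 10.46 and 10.57 against 9.12, 9.41, 9.76 and 9.19, a difference of 1.15 (SE 0.19), and BCL2L1 at 0.66 (SE 0.19).

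Among NF-kB targets and ERK feedback genes the calls all went up. IER3, an early response gene that both pathways induce, stood at 10.35 and 10.39 on the number 3 arrays and at 7.86, 8.45, 8.17 and 8.50 on the others. All 4 others lay far below, and the difference was 2.12 (SE 0.20, limma adjusted p = 0.0463). NFKBIA stood at 9.11 and 8.92 against 8.27, 8.24, 8.24 and 8.27, a difference of 0.76 (SE 0.08, limma adjusted p = 0.0463). Of 25 NF-kB targets, limma called these 2 higher and 0 lower as planned, and 11 higher and 0 lower with the replicate block, with a list median of 0.22. Of all genes 0.982% were called higher as planned and 13.2% under the block. Among the 9 that joined were PLAU, the urokinase gene, at 1.97 (SE 0.32), the adhesion gene ICAM1 at 0.75 (SE 0.13) and the NF-kB cofactor BCL3 at 0.60 (SE 0.16), which was 0.36 without control replicate 3. Of 12 ERK feedback genes, 2 were called as planned and 6 under the block, all higher, with a list median of 0.28. DUSP5, an ERK phosphatase, stood at 7.21 and 7.28 against 6.17, 6.40, 6.15 and 6.51, a difference of 0.94 (SE 0.13, limma adjusted p = 0.0482). SPRY4, an inhibitor upstream in the cascade, stood at 8.35 and 8.38 against 7.44, 7.23, 7.68 and 7.38, a difference of 0.93 (SE 0.13, limma adjusted p = 0.0482). Both genes left a gap between number 3 and every other array. Of 20 immediate early genes, only IER3 was called as planned, and with the block IER2 and JUNB were also higher and JUN and ATF3 lower.

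Mitosis genes were lower in number 3, 5 as planned and 22 with the replicate block. Of 33 measured, limma called 0 higher and 5 lower as planned, DLGAP5, ANLN, NUSAP1, CENPE and CCNA2, and in the block fit 22 lower and 1 higher, the transcription factor gene FOXM1. Of all genes 0.927% were called lower as planned and 13.9% under the block. The list median was -0.50, at -0.41 in PRMT5_down and -0.57 in control. CENPE, a kinetochore motor, stood at 7.17 and 6.95 on the number 3 arrays and at 8.47, 8.11, 8.18 and 7.82 on the others, a difference of -1.09 (SE 0.15, limma adjusted p = 0.0482). NUSAP1, a spindle protein, stood at 8.35 and 7.98 against 9.31, 9.03, 9.26 and 9.05, a difference of -0.998 (SE 0.14, limma adjusted p = 0.0482). DLGAP5, a spindle assembly factor, stood at 7.95 and 7.60 against 8.70, 8.69, 8.62 and 8.67, a difference of -0.90 (SE 0.10, limma adjusted p = 0.0463). For all 3 the control array of number 3 was the lowest of the 6. ANLN, which acts in cytokinesis, differed by -0.74 (SE 0.10) and CCNA2, cyclin A2, by -0.62 (SE 0.09). The genes that joined under the block included CDK1, BUB1, TPX2, TOP2A, KIF11 and CENPF.

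Other cell cycle genes were divided. Of 37 S phase and replication genes, limma called 1 as planned, the helicase gene MCM6, at 9.80 and 9.64 against 10.47, 10.28, 10.33 and 10.26, a difference of -0.62 (SE 0.09, limma adjusted p = 0.0483). Under the block 3 were higher (MCM5, POLD1 and TK1) and 10 lower (27%), and the list median was -0.09, turning to 0.07 with both number 1 arrays left out. Of all genes, limma called 0.982% higher and 0.927% lower as planned, and 13.2% and 13.9% under the block. Of genes above background on all 6 arrays, the block fit called 20.5% higher and 21.9% lower. The genes of 2 inhibitors of cyclin-dependent kinases rose, CDKN1A to 10.26 and 10.26 from 9.73, 9.59, 9.52 and 9.63, and CDKN2D to 8.40 and 8.39 from 7.85, 7.87, 7.64 and 7.78. The differences were 0.64 (SE 0.09) and 0.61 (SE 0.09), both with a limma adjusted p of 0.0482. Over all 25 growth arrest and quiescence genes more calls went the other way, with 4 higher (16%) and 10 lower (40%) under the block. Among the lower were CDKN1B, FOXO1, FOXO3 and PDCD4. The median of this list was -0.24 against numbers 1 and 2, -0.215 against number 1 alone and -0.03 against number 2 alone. The p53 targets were divided too, with CDKN1A and the kinase gene PLK3 (0.60, SE 0.09) called higher and RRM2B, a ribonucleotide reductase subunit, lower (-0.77, SE 0.09). With the block 7 of 25 were higher (28%) and 5 lower (20%), near the shares of genes above background. Of 26 replication-dependent histone genes, many of which probe sets may not tell from near-identical copies, 0 were called as planned and 8 (30.8%) under the block, all lower. H2AC15, a histone gene that is not on that list, was called lower as planned. The mean of the histone list did not set number 3 apart, since control array 1 lay at -0.25 from the mean of numbers 1 and 2 and control array 3 at -0.21.

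**Figure D3:**
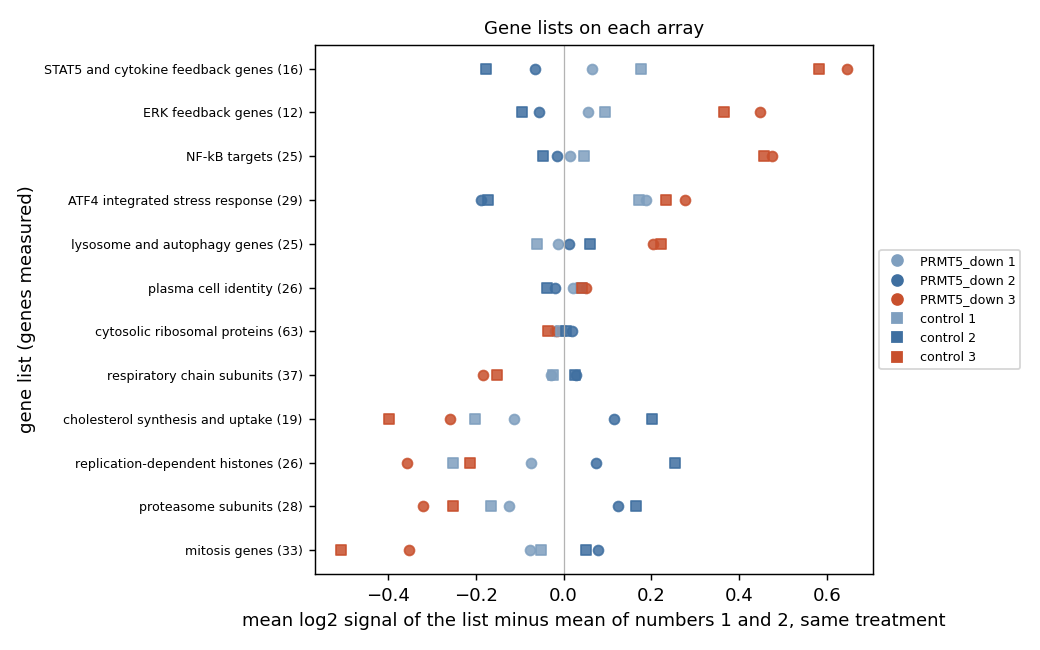
Mean log2 signal of 12 gene lists on each array, minus the mean of numbers 1 and 2 of the same treatment, with the number of genes measured in parentheses (circles PRMT5_down, squares control, red for number 3). Mitosis genes lay at -0.35 and -0.51 on the number 3 arrays and STAT5 and cytokine feedback genes at 0.65 and 0.58, while cytosolic ribosomal proteins lay within 0.04 of 0 on all 6 arrays.

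Genes of the integrated stress response, which ATF4 drives when amino acids run short, were called higher more often than lower, and number 1 lay close to number 3. TRIB3, a pseudokinase induced by ATF4, stood at 11.63 and 11.89 against 10.67, 10.55, 10.99 and 10.61, a difference of 1.06 (SE 0.13, limma adjusted p = 0.0463). It was the 1 call among 29 genes as planned, and under the block 13 were higher (44.8%), with SLC7A5, SHMT2, CEBPB, ATF5 and SESN2 among them, and 2 lower, MTHFD2 and SLC7A11. Of all genes, limma called 1.91% as planned, and 13.2% higher and 13.9% lower under the block. Of genes above background on all 6 arrays, the block fit called 20.5% higher and 21.9% lower. The list median was 0.23 against numbers 1 and 2, 0.02 against number 1 and 0.44 against number 2. Cytosolic aminoacyl-tRNA synthetases, some of which ATF4 also drives, had 2 higher (10.5%) and 5 lower (26.3%) of 19 under the block and 0 called as planned. Of these, RARS1 stood at -0.59 (SE 0.10) and LARS1 at -0.65 (SE 0.19).

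Proteasome and respiratory chain subunits had calls in the lower direction alone, nearly all of them only with the replicate block. PSMA3, a subunit of the proteasome core, stood at 9.69 and 9.56 against 10.33, 10.27, 10.24 and 10.32, a difference of -0.67 (SE 0.08, limma adjusted p = 0.0463). It was the 1 call among 28 proteasome subunits as planned, and with the replicate block 14 were lower (50%) and 0 higher, with a list median of -0.33. That median was -0.145 against number 1 alone and -0.40 against number 2 alone. Number 1 also lay below number 2, with a median of number 1 minus number 2 of -0.25. Of all genes, limma called 0.982% higher and 0.927% lower as planned, and 13.2% and 13.9% under the block. Of genes above background on all 6 arrays, the block fit called 20.5% higher and 21.9% lower. Respiratory chain subunits had 0 calls of 37 as planned and 9 lower and 0 higher under the block. These 9 (24.3%) lie near the share of genes above background, and were led by NDUFS1 of complex I at -0.65 (SE 0.11) and COX6C at -0.54 (SE 0.09). Mitochondrial ribosomal proteins moved both ways. MRPS2 rose to 10.48 and 10.32 from 8.87, 9.34, 9.25 and 9.28, a difference of 1.22 (SE 0.16), and MRPL13 fell to 8.91 and 8.81 from 9.49, 9.64, 9.46 and 9.68, a difference of -0.71 (SE 0.10), both with a limma adjusted p of 0.0482. Under the block 8 of the 35 were higher (22.9%) and 11 lower (31.4%). Of 63 cytosolic ribosomal proteins, limma called 0 as planned and 1, RPL35A, with the block.

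Calls among lysosome genes were mostly higher and calls among sterol genes mostly lower, all but 1 of them only with the replicate block. ATP6V0D1, a subunit of the lysosomal proton pump, stood at 9.93 and 9.88 against 9.29, 9.39, 8.96 and 9.01, a difference of 0.74 (SE 0.10, limma adjusted p = 0.0482). It was the 1 call of 25 lysosome and autophagy genes as planned, and under the block 11 were higher, among them the protease genes CTSB, CTSD and CTSL, the sialidase gene NEU1 and TFEB, the master regulator of lysosome genes. The same fit had 2 of that list lower, ATP6V1A and GABARAPL1, and the list median was 0.23. Of all genes, limma called 1.91% as planned, and 13.2% higher and 13.9% lower under the block. Of genes above background on all 6 arrays, the block fit called 20.5% higher and 21.9% lower. Of 19 genes of cholesterol synthesis and uptake 0 were called as planned, and 9 were lower and 1 higher with the block, such as IDI1, SQLE and HMGCS1 and, at -1.35 (SE 0.40), MSMO1. MSMO1, a sterol oxidase gene, stood at 8.49 and 7.84 on the number 3 arrays, 9.02 and 9.07 on number 1, and 9.83 and 10.12 on number 2, so that the 3 numbers formed steps. Fatty acid synthesis genes had 5 lower and 1 higher of 14 under the block and 0 called as planned. Their list median was -0.20 against numbers 1 and 2, -0.035 against number 1 and -0.30 against number 2. For the cholesterol list these medians were -0.20, -0.135 and -0.40. Number 1 also lay below number 2, by a median of -0.37 on the fatty acid list and -0.325 on the cholesterol list.

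The methionine cycle held 2 of the largest changes. MAT2A, which makes S-adenosylmethionine, the methyl donor that PRMT5 and other methyltransferases use, stood at 12.53 and 12.29 on the number 3 arrays and at 10.29, 10.92, 10.51 and 11.07 on the others, a difference of 1.71 (SE 0.25, limma adjusted p = 0.0482). MTR, methionine synthase, stood at 6.86 and 7.27 against 8.34, 8.23, 8.31 and 8.30, a difference of -1.23 (SE 0.12, limma adjusted p = 0.0463). Of the 19 polyamine and one-carbon genes these were the only 2 called as planned, where 1.91% of all genes were called. Under the block 4 were higher (21.1%) and 5 lower (26.3%), beside 13.2% and 13.9% of all genes. These shares lie near the 20.5% and 21.9% of genes above background on all 6 arrays.

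The probe sets of MAT2A went in opposite directions, a pattern chosen after its values were seen. Of its 6 probe sets, all above background on all 6 arrays, 5 were higher in number 3, by 1.71 to 2.80 on the log2 scale. The one with the largest difference stood at 10.90 and 10.63 against 7.61, 8.14, 7.83 and 8.28, 6.96-fold. The sixth stood at 5.53 and 5.41 against 6.42, 7.21, 6.63 and 7.47, a difference of -1.46, or 2.76-fold lower. On all 6 probe sets both number 3 arrays lay beyond the other 4. Among 11734 genes with more than 1 probe set, MAT2A was the only one with probe sets at least 2-fold apart in both directions and no overlap between the groups, while 192 genes had such a probe set higher and 131 lower. Where in the transcript each probe set lies was not analysed here.

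**Figure D4:**
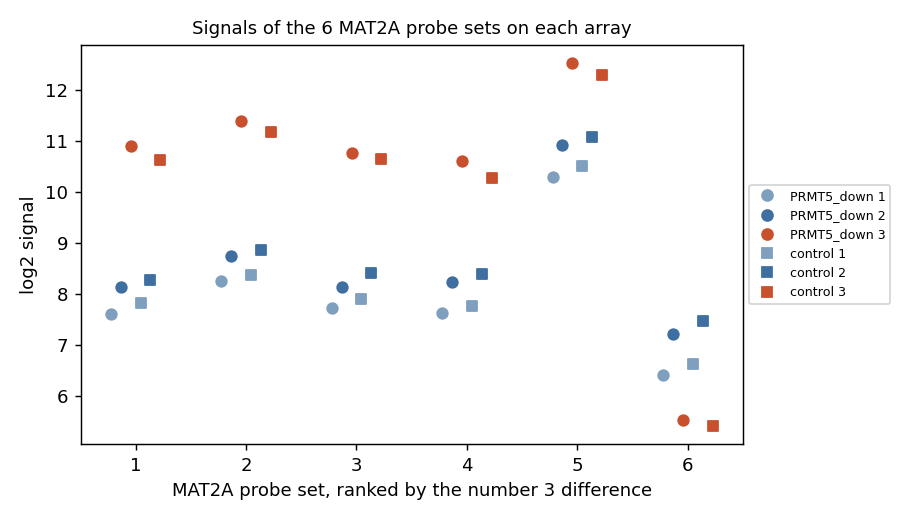
Log2 signals of the 6 MAT2A probe sets (x axis, ranked by the number 3 difference) on each array, red for number 3, circles for PRMT5_down and squares for control. The number 3 arrays are highest on probe sets 1 to 5 and lowest on probe set 6, at 5.53 and 5.41.

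The largest called difference on the higher side was that of MCEMP1, followed by ANKRD55, SOCS1 and IER3. MCEMP1, which encodes a membrane protein of mast cells and monocytes, stood at 8.08 and 8.18 on the number 3 arrays and at 5.56, 5.87, 5.47 and 5.76 on the others, a difference of 2.46 (SE 0.14, limma adjusted p = 0.0382). BATF3, a leucine zipper factor of dendritic cells, stood at 7.11 and 7.21 against 5.03, 5.00, 5.41 and 5.13, a difference of 2.02 (SE 0.11, limma adjusted p = 0.0382). VDR, the vitamin D receptor, stood at 6.97 and 6.99 against 5.26, 5.29, 5.02 and 5.23, a difference of 1.78 (SE 0.10, limma adjusted p = 0.0382). In these 3 genes the 2 arrays of number 3 nearly coincide. PRF1, perforin, rose by 1.79 (SE 0.14), NNMT, a methyltransferase that also consumes S-adenosylmethionine, by 1.95 (SE 0.15), the thromboxane receptor gene TBXA2R by 2.02 (SE 0.18), ANKRD55 by 2.31 (SE 0.20) and TMEM154 by 1.73 (SE 0.19). FCGR1BP, a pseudogene with close copies among Fc receptor genes, was above background only on the number 3 arrays, at 5.28 and 6.27, at least 1.79-fold higher than the others. Such a bound sets each array below background at its background level. Probe sets of 1 gene differed in size, from 0.48 to 1.78 for VDR and from 0.30 to 2.02 for TBXA2R among those above background on all 6 arrays.

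On the lower side, 3 of the 12 named genes were below background on both number 3 arrays, so that their falls are bounds. ZC3H6, a zinc finger gene, stood at 4.32 and 4.28 in number 3, both below background, and at 6.95, 6.39, 6.51 and 6.41 on the others, at least 2.95-fold lower in number 3 (limma adjusted p = 0.0463). ZNF204P was at least 2.16-fold and H2AC15 at least 2.31-fold lower by the same bound. The one H2AC15 probe set above background on all 6 arrays was at -0.63. ARRDC3, an arrestin domain gene that the glucose sensor MondoA induces, stood at 5.33 and 5.09 against 7.11, 7.08, 6.77 and 7.25, a difference of -1.84 (SE 0.15, limma adjusted p = 0.0463). TXNIP, the best known MondoA target, was at -0.22 (SE 0.10), or -0.09 without control replicate 3, and was not called. TET1, which oxidises methylcytosine in DNA, stood at 6.94 and 6.88 against 8.49, 8.26, 8.46 and 8.43, a difference of -1.50 (SE 0.10, limma adjusted p = 0.0463). In ZC3H6, ARRDC3 and TET1 both number 3 arrays stood well below all 4 others. The other called genes with large falls were XKR3 (-1.58), HINT3 (-1.28), the minor spliceosome gene SNRNP48 (-1.28), ZFC3H1 (-1.25), ZMYM6 (-1.24) and ZNF573 (-1.23). The most variable probe set of ZMYM6, not above background on all 6 arrays, was at 0.30, while the 3 that were above it on all 6 lay between -1.24 and -0.09. The other HINT3 probe set was at -0.45, and those of MTR above background on all 6 arrays lay between -1.23 and -0.42. BNIP3, a mitophagy gene counted among hypoxia targets, fell to 8.40 and 7.92 from 9.47, 9.36, 9.25 and 9.39, a difference of -1.21 (SE 0.12, limma adjusted p = 0.0463). VEGFA, on the same list, was called higher with the block, at 0.37 (SE 0.08).

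**Figure D5:**
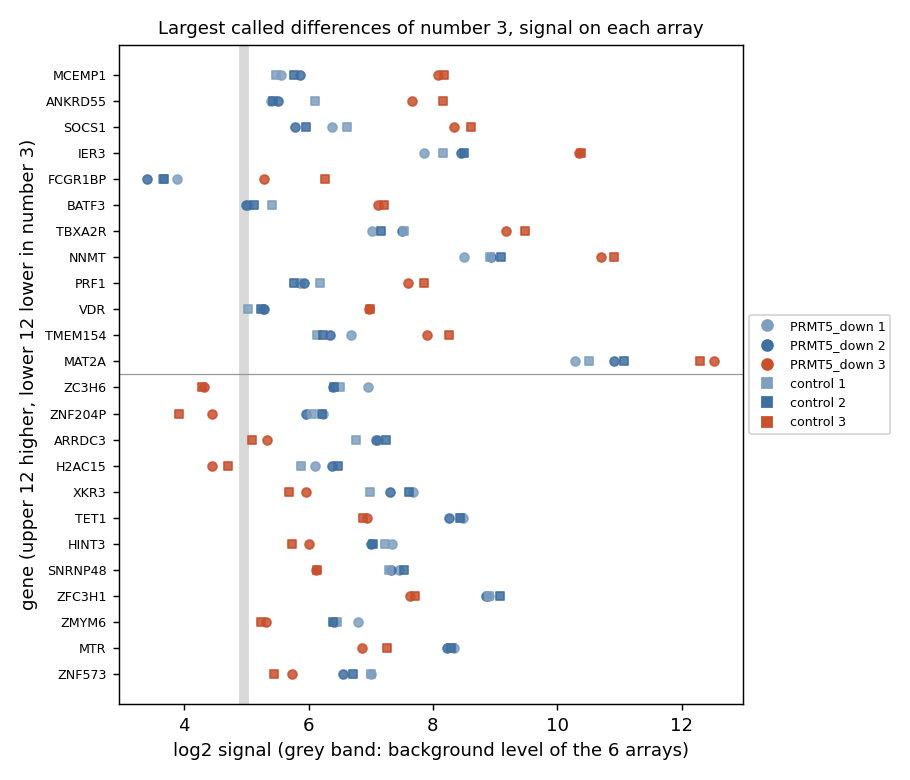
Log2 signal of the 12 genes with the largest called differences in each direction on each of the 6 arrays, red for number 3, circles for PRMT5_down and squares for control, with a grey band at the background of 4.90 to 5.02. ZC3H6, ZNF204P and H2AC15 lie below background in number 3. In every gene both number 3 arrays lie beyond the other 4, as the rule for naming these genes required.

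Genes called lower had longer spans than genes called higher. The median span in the RefSeq annotation of GRCh38.p14 was 14.5 kb for the 178 genes called higher, 50.2 kb for the 168 called lower and 25.8 kb for all genes, and 16.6 and 45.6 kb for the genes called higher and lower under the block. Among genes above background on all 6 arrays, split by span into 5 classes of equal size, the median difference was 0.15 in the shortest class (up to 8.70 kb) and -0.13 in the longest (from 80.12 kb). Under the block 31.5% of the shortest class were higher and 6.82% lower, while 33.0% of the longest were lower. In the longest class the median was -0.08 in PRMT5_down and -0.18 in control. It was -0.175 against number 1 alone and -0.08 against number 2 alone. Numbers 1 and 2 differed by span as well, with a median of number 1 minus number 2 of -0.07 in the shortest class and 0.06 in the longest. Of 251 zinc finger genes named ZNF and above background on all 6 arrays, 47 were higher (18.7%) and 75 lower (29.9%) with the block, with a median of -0.13. Of all 10200 genes above background on all 6 arrays, 20.5% were higher and 21.9% lower in that fit, with a median of 0.03. The mitosis list had a median span of 29.4 kb, the proteasome list 17.7 kb and the STAT5 and cytokine feedback list 6.5 kb. These spans are a description, and their part in the differences was not tested.

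Red cell genes had members on both sides in the block fit and too few measured for a planned-fit count to be read, since 1.91% of all genes were called there. In the planned fit limma called 0 of 6 genes on the list of globins and AHSP, 0 of 16 on a heme list, 0 of 20 red cell membrane genes and 0 of 15 erythroid transcription factors. With the replicate block, HBZ, embryonic zeta globin, was called lower, at -1.11 (SE 0.35 as planned and 0.13 in the block fit). Its signals were 11.09 and 10.27 in number 3, 12.56 and 11.87 in number 1 and 11.47 and 11.24 in number 2. FECH, the last enzyme of heme synthesis, was at -0.99 (SE 0.22) and CPOX at -0.79 (SE 0.15), both called lower with the replicate block. The heme list also holds genes of heme breakdown, such as HMOX2, and of transport. Of its 16 genes the block fit called 2 higher, HMOX2 and SLC25A39, and 6 lower. Of the 15 erythroid factors it called 5 higher, GATA1, GFI1B, E2F4, LYL1 and CBFA2T3, and 2 lower, IKZF1 and KLF3. Of all genes it called 13.2% higher and 13.9% lower. Of 20 membrane and surface genes that fit called 2 higher and 7 lower, the blood group genes RHD and RHCE, which share most of their sequence, among the lower. The membrane list median was -0.39 against number 1 alone and 0.03 against number 2 alone. Its median of number 1 minus number 2 was 0.36, so number 3 lay near number 2 and number 1 above both.

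Many markers of other blood and tissue cells lay below background, so their counts of calls say little. At or below it on all 6 arrays were 11 of 26 plasma cell genes, 6 of 13 B cell genes, 9 of 14 T and NK cell genes, 13 of 16 monocyte and granulocyte genes and 7 of 16 fibroblast and epithelial genes. Limma called 0 on each of these lists as planned, where 1.91% of all genes were called. Under the block the T cell gene CD3D was higher, at 8.42 and 8.20 against 7.39, 6.64, 7.54 and 6.81, while CD2 was below background on all 6 arrays and CD3E was above it on 1. LYZ, a monocyte gene, was higher in that fit at 0.36 (SE 0.12), while CD14 was below background on all 6 arrays. The T and NK cell list had a mean signal that lay 0.20 and 0.25 above numbers 1 and 2 in PRMT5_down and control, with 14 of 14 members higher by any amount, beside 10869 of 18132 genes. All 6 arrays put 3 of these members over background. The monocyte and granulocyte list, mostly below background, had 14 of 16 higher and 2 lower. The background level was 4.98 and 5.02 on the number 3 arrays and 4.95, 4.90, 4.99 and 4.91 on the others, so signs of dim genes say little about cells. In bulk RNA, a change in the number of cells of a type and a change in RNA per cell cannot be told apart.

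Control transcripts were read beside the genes. The 12 probe sets for the bacterial poly-A transcripts, which are commonly added to RNA before labelling, had mean signals of 7.29 and 7.34 on the number 3 arrays and 6.86, 7.14, 6.83 and 7.06 on the others. All 12 had both number 3 arrays above the other 4, and their mean differed by 0.34. The exact permutation test, two-sided, gave p = 0.133, the minimum for 2 arrays against 4, and 0.266 after Benjamini-Hochberg adjustment over 4 control measures. The hybridisation controls, added after labelling, differed by -0.02 (exact permutation p = 0.933). The actin probe sets at the 3′ end minus those at the 5′ end, a measure of RNA integrity and labelling, gave 0.84 and 0.73 on the number 3 arrays and 1.22, 1.02, 1.09 and 1.02 on the others, a difference of -0.30 (exact permutation p = 0.133). The same measure for GAPDH differed by 0.00 (exact permutation p = 0.933). The part of these control values in the gene differences was not tested.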

How the data were processed

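RNA of 6 samples was hybridised to 1 Affymetrix array each. Per the submitters' processing notes, RMA was the method by which the authors made the deposited values, which are on the log2 scale with 2 decimals. Its software version and the chip definition file were not given in the sources used here. The method gives all arrays 1 common distribution and would hide a shift of most genes. No further normalization was applied.

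The table holds 49372 probe sets, of which 79 are controls, 44988 match 1 gene symbol, 1832 match several and 2473 stay without a name here. Gene identifiers served to update 44961 symbols. The single-symbol probe set with the highest mean over the 6 arrays stood for its gene, with no filter on dim ones. Array numbers come from the sample titles.

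Number 3 was compared with numbers 1 and 2 with lmFit and eBayes of limma 3.58.1 (R 4.3.3), with treatment as covariate and Benjamini-Hochberg adjustment over all genes. The replicate block gave each number its own level. The 2 arrays of each number deviated together from their group means (r = 0.82, 0.72 and 0.79 across genes for numbers 1, 2 and 3, with 0.1 as the minimum), and the numbers were treated as pairs on that basis from the data, not the labels.

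The members and the 44 gene lists were chosen with earlier results of these data known. Named genes were PRMT5, the 12 largest called differences in each direction with no overlap between the groups and signal above background on the higher side, and from each list described every gene called and otherwise up to 5 with the smallest p. The lists of genes called with the block, the defining markers outside these and the second look at MAT2A were added after their values were seen. Gene spans and promoters come from the RefSeq annotation of GRCh38.p14, and 99.9% of genes had a span. The exact tests used scipy 1.17.1. The fit was tested on simulated data with known differences.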

Additional observations from a re-analysis of the deposited data

Results flagged for a closer look

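Some signals outside the genes compared also differed between number 3 and the other arrays. Of 4305 probe sets with several gene symbols or none, which entered no list, limma called 55 in the same design, 33 higher and 22 lower, and 880 had an unadjusted p under 0.05. Neither is a larger share than among the 18132 genes, where 346 (1.91%) were called and 4107 (22.7%) had an unadjusted p under 0.05. The mean of the poly-A control transcripts was higher by 0.34 on the log2 scale in number 3 (exact permutation p = 0.133, the smallest possible here).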

How the results depend on the processing

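The 346 calls for number 3 against numbers 1 and 2 stayed within 1.5 times of that count with the most variable probe set, the mean over a gene's probe sets and a further quantile normalization. They became 57 and 38 with the lowest 30% and 50% left out, 13 with trend and robust, 3 with treat at 1.2-fold, and 0 over all probe sets. They became 2289 with array weights, 1130 with no treatment covariate, 4928 with the replicate block and 4579 with the replicate block and the lowest 50% left out. With number 1 left out they were 0, with number 2 left out 2732, and with 1 array left out 0 to 0. With the replicate block and 1 array left out they were 0 to 819, the 819 without control replicate 1. The settings that join the block with another choice were added after seeing the data. The cause of these changes was not tested.

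Number 3 against number 1, 5318 as planned, gave 12757 when every probe set was tested, 2180 under treat, and 0 to 2732 in fits without 1 array. Number 3 against number 2, 3465 as planned, gave 8006, 963 and 0 to 0. Number 1 against number 2, 3285 as planned, gave 7849, 1027 and 0 to 1018. The difference by treatment gave 0 calls under each setting run and was not refitted with an array left out. Among genes named, PRMT5 turned to -0.17 with number 1 left out and to -0.029 without PRMT5_down replicate 1, within -0.029 to 0.41 over the arrays left out, and ZMYM6 to 0.30 with the most variable probe set. Of 120 named genes refitted with 1 array left out, 17 moved by over 1.5 times. Medians of the mitosis, proteasome, respiratory chain, cholesterol, NF-kB, ERK, STAT5, ATF4 and lysosome lists kept their sign under all 25 settings, the ATF4 median at 0.02 to 0.44. Some settings leave the differences as they are, so no sign could turn there: trend and robust, treat, no treatment covariate and the replicate block. Medians of other lists turned under some settings, among them p53 targets, heme synthesis, red cell membrane and mitochondrial ribosomal proteins. Only 2 arrays carry number 3, which limits every statement above, and a signal near background has no firm level.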
